A study of Mus musculus with 6 samples.

Results

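Enzymes that place or remove acetyl and methyl groups on histones, together with the bromodomain proteins that read acetylated histones, were examined in hippocampal RNA of saline-treated and methamphetamine (MA)-treated mice. The members were all genes of the deposited table whose symbol belongs to the histone deacetylase (Hdac), sirtuin (Sirt), lysine acetyltransferase (Kat), Ep300 and Crebbp, lysine demethylase (Kdm), lysine methyltransferase (Kmt2 and Kmt5), Setd, Ezh and Brd families, which gave 67 of the 16060 rows. Of these, 66 were among the 13321 rows that passed a filter on low values (at least 0.5 RPKM in at least 3 of the 6 libraries), and Kdm4d, with log2 values between 0.08 and 0.37, was the member left out. The choice was made by name and no measured value entered the rule, but earlier results of these data were known when it was made. The table writes the histone H4 methyltransferase Kmt5a under its older symbol Setd8, which matches the family names, whereas 3 further genes of these families stand under older symbols that do not (Csrp2bp for Kat14, Suv420h1 for Kmt5b and Suv420h2 for Kmt5c) and are given apart from the members.

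The mice were C57BL/6 animals, described in the study's methods as adult males. The control group received saline and the MA group received MA in doses that were raised each week over the treatment period, and behavioral tests were run on the animals before the tissue was taken. There were 3 mice in each group, with 1 library per mouse. The material was hippocampal tissue, whose dissection is not described in the sources used here. Fewer cells of a type and less RNA per cell cannot be told apart in it. Levels are given as log2 of RPKM plus 1, read from a table that the authors had already transformed and whose highest value is the same in all libraries, and read totals were not part of it, which leaves library depth unknown. A difference is the MA mean minus the Control mean on this scale, with groups as the columns are labelled, and an offset of 1 makes it understate the change of low genes.

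All 8 hippocampal subfield markers and all 8 neuronal markers were above 0 in each of the 6 libraries, with lowest log2 levels of 2.70 and 3.38. The 8 subfield markers all had lower means in MA (median difference -0.15, 2 with an unadjusted p under 0.05), as did the 6 astrocyte markers (median -0.13, 1 with such a p). Means were also lower for 5 of 8 neuronal (median -0.02, 1 with such a p), 5 of 6 oligodendrocyte (median -0.13, 0) and 4 of 6 microglial markers (median -0.12, 0). Of all genes, 5.46% had such a p and were lower in MA, and 4.99% had such a p and were higher. The 5 endothelial markers (median 0.14, 2 with such a p) and the 4 tested thalamic markers (median 0.49, 0 with such a p in limma) had higher means in MA, and the summed thalamic level was 14.6 to 21.4 RPKM in Control and 14.6 to 47.1 RPKM in MA. In these lists no marker passed the adjusted threshold, whereas markers of 2 other sources did. The summed level of 6 choroid plexus markers lay between 64.5 and 419 RPKM in the Control libraries and between 1770 and 5070 RPKM in the MA libraries, with 4 of 6 past an adjusted p of 0.05 in limma and all 6 higher. The sum of 5 erythrocyte markers lay between 1600 and 2020 RPKM in Control and between 3320 and 4380 RPKM in MA, with 3 of 5 past the same threshold. Immediate early genes, the first genes induced by neuronal activity, were lower in MA for 13 of 14, with a median difference of -1.29, and 6 of them passed the adjusted threshold. The study reports these genes with the opposite sign, as higher in MA, both from its RNA-seq and from qPCR of selected ones. The columns' labels are therefore in doubt, and no targeted gene is there to check them. If the labels were exchanged, every difference given here would change sign while its size and p would not. The part of any of these in the results below was not tested. The library labelled MA replicate 3 stood apart from the other 5: it was the only library in which no gene was listed at 0 (259 to 437 genes in the others), and limma's quality weights gave it 0.194, against 0.937 to 2.45 in the others.

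Acetylation of histone tails loosens chromatin and is balanced by acetyltransferases, which write the mark, and deacetylases, which remove it. Methylation marks either active or silenced chromatin depending on the residue, and is set by the Kmt2 and Ezh enzymes and several Setd enzymes and removed by Kdm enzymes. The members were gathered by symbol, and some act on proteins other than histones. In the hippocampus this machinery is known for its part in memory and in responses to drugs of abuse, with Hdac2 and Crebbp among the best studied of its genes.

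At the RNA level the estimated differences between the groups were no larger in size than 0.57 on the log2 scale, with only 3 libraries per group. None of the 66 tested members passed an adjusted p of 0.05 (limma with Benjamini-Hochberg adjustment over 13321 genes), where 0.263% of all genes did. With library quality weights, which count a deviating library less, 2 members did, beside 4.4% of all genes. An unadjusted p under 0.05 was reached by 8 members, or 12.1%, beside 10.4% of all genes tested. Of the 8, 5 were lower in MA (7.58%, beside 5.46% of all genes) and 3 were higher (4.55%, beside 4.99%). In 14 members, or 21.2%, every MA library lay on the same side of every Control library, beside 17.5% of all genes. In 10 of them MA was lower (15.2%, beside 10.2%) and in 4 higher (6.06%, beside 7.32%). These shares were near the background and say nothing particular about the members. The differences ran from -0.57 for Kdm7a to 0.39 for Hdac6, with a median of 0.019, and 31 members were lower in MA (47.0%, beside 52.7% of all genes, whose median was -0.010).

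The precision of the measurement bounds what could have been missed. The median half-width of the 95% interval was 0.28 on the log2 scale for the members. In all 66 members the interval lay between -1 and 1, so that a difference of 1 or more in either direction lay outside it, and in 43 it lay between -0.5 and 0.5. Because of the offset, a difference of 1 on this scale is a larger fold change of RPKM in low members. The intervals therefore do not exclude the same fold change for every member, and they assume 1 common spread for both groups. The spread was wider among the MA libraries than among the Control libraries in 50 of 66 members, or 75.8%, beside 71.1% of all genes, with median SDs of 0.15 and 0.093 for the members.

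**Figure D1:**
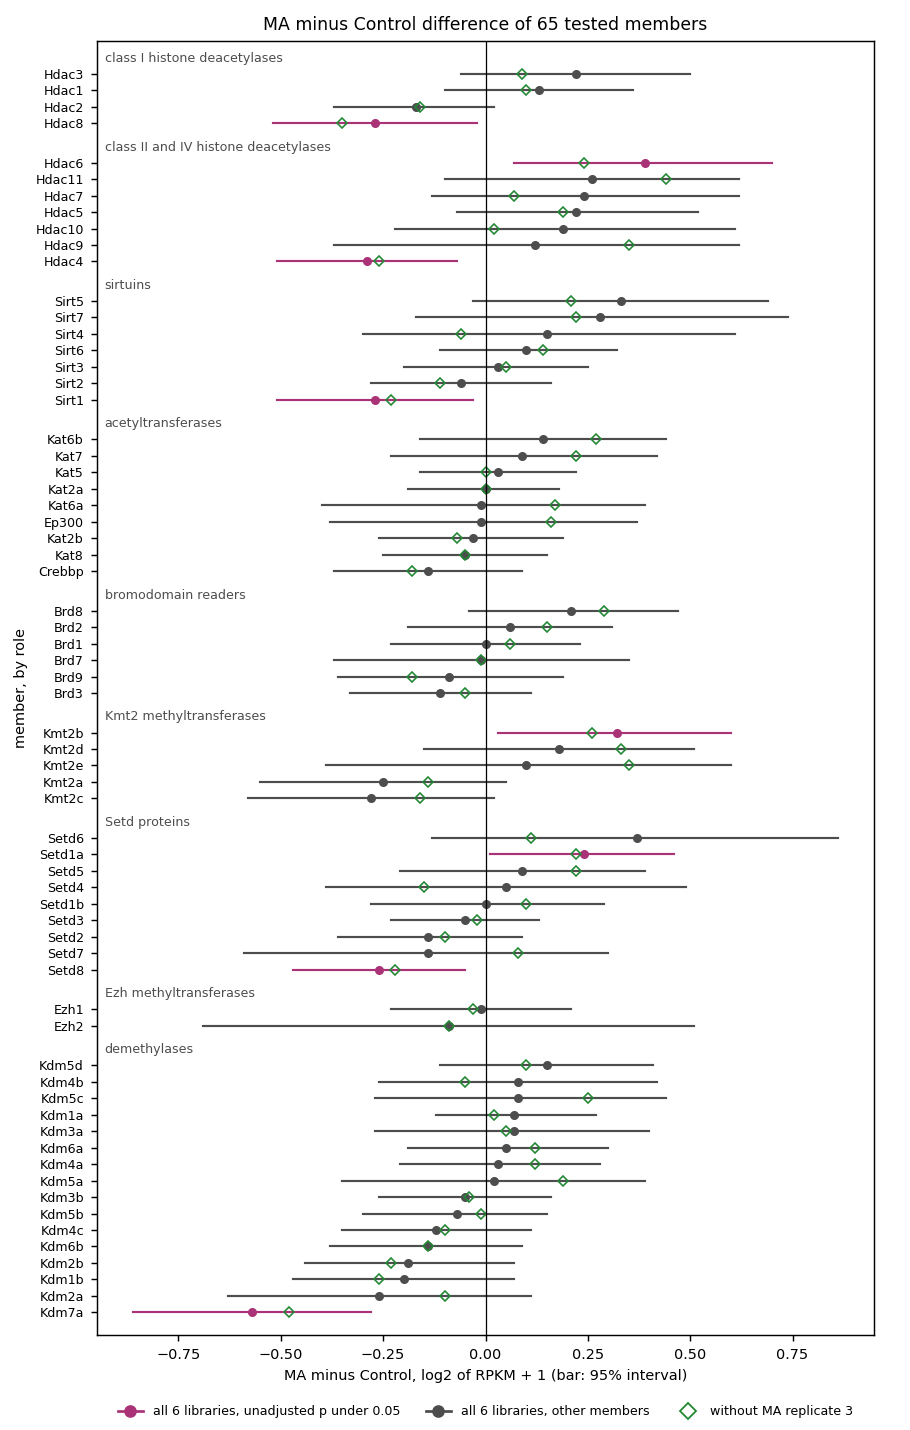
Difference between MA and Control (horizontal axis, log2 of RPKM plus 1) of 65 tested members, grouped by role. Filled circles with bars are the limma estimates over 6 libraries with 95% intervals, colored for the 8 members with an unadjusted p under 0.05, and open diamonds are the estimates without MA replicate 3. All intervals lie between -1 and 1, and Kdm7a has the lowest estimate at -0.57.

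Kdm7a showed the largest difference of the members. It encodes a Jumonji demethylase that removes repressive methyl groups from histone H3, and lies on chromosome 6 of GRCm38 from 39136623 to 39206789. Its log2 levels were 3.53, 3.24 and 3.31 in Control replicates 1, 2 and 3 and 2.82, 2.94 and 2.61 in MA replicates 1, 2 and 3. All 3 MA libraries lay below all 3 Control libraries. The means were 3.36 ± 0.15 and 2.79 ± 0.16 (SD, n = 3 each), a difference of -0.57 (standard error 0.13, 95% interval -0.86 to -0.28, limma adjusted p = 0.199). The unadjusted p stayed under 0.05 in all 6 fits that each left out 1 library, where the difference lay between -0.64 and -0.48. With limma's quality weights its difference of -0.45 passed the adjusted threshold (adjusted p = 0.0479).

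Among the other members with an unadjusted p under 0.05, 4 were lower in MA. Hdac4, a class IIa deacetylase that shuttles between nucleus and cytoplasm in neurons, had log2 levels of 2.93, 3.02 and 3.0 in Control and 2.79, 2.65 and 2.63 in MA, with no overlap. Its difference was -0.29 (standard error 0.09, limma adjusted p = 0.35). A lincRNA gene on the opposite strand overlaps 22.4% of its exonic length, and whether counting used strand is not given in the sources used here, so its value is uncertain. Setd8, which adds a single methyl group to histone H4, had levels of 4.88, 4.85 and 5.01 in Control and 4.61, 4.78 and 4.58 in MA. The groups did not overlap, and the difference was -0.26 (standard error 0.09, limma adjusted p = 0.394). Sirt1, an NAD-dependent deacetylase, had levels of 2.42, 2.35 and 2.34 in Control and 2.24, 2.05 and 2.02 in MA. This is a difference of -0.27 (standard error 0.10, limma adjusted p = 0.437), again without overlap. Hdac8, a class I deacetylase that also acts on cohesin, had levels of 3.33, 3.17 and 3.35 in Control and 2.96, 2.91 and 3.16 in MA. The groups nearly met, at Control replicate 2 and MA replicate 3, and the difference was -0.27 (standard error 0.11, limma adjusted p = 0.450).

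The remaining 3 were higher in MA. Hdac6, a mainly cytoplasmic deacetylase of tubulin, had log2 levels of 3.32, 3.33 and 3.25 in Control and 3.56, 3.52 and 3.98 in MA. All MA libraries lay above all Control libraries, and MA replicate 3 was the highest of them. The difference was 0.39 (standard error 0.13, limma adjusted p = 0.390), and it was 0.24 without MA replicate 3. Kmt2b, which methylates histone H3 at promoters, had levels of 2.84, 2.92 and 2.86 in Control and 2.94, 3.32 and 3.30 in MA. MA replicate 1 was close to the Control libraries and the other 2 were well above them, for a difference of 0.32 (standard error 0.12, limma adjusted p = 0.440). Setd1a, the catalytic subunit of another histone H3 methyltransferase complex, had levels of 2.88, 3.06 and 2.93 in Control and 3.24, 3.11 and 3.22 in MA. Its difference was 0.24 (standard error 0.10, limma adjusted p = 0.458), and other annotated genes cover 52.3% of its exonic length, so it is uncertain. On GRCm38 Sirt1 lies at chr10:63319005-63381704, Hdac8 at chrX:102284639-102505359, Kmt2b at chr7:30568858-30588726 and Setd1a at chr7:127776670-127800122. For each of the 8 members the exact two-sided permutation test gave p = 0.1, the smallest that 3 libraries against 3 allow. All 8 kept their direction in each of the 6 fits that left out 1 library, whereas Sirt1 and Kmt2b kept an unadjusted p under 0.05 in only 1 of the 6, Hdac8 and Setd1a in 2, and Hdac4, Hdac6 and Setd8 in 4. The number of members at that threshold was 3 without Control replicate 1 (beside 6.22% of all genes), 6 without Control replicate 2 (beside 6.84%) and 1 without Control replicate 3 (beside 7.59%). It was 6 without MA replicate 1 (beside 8.69%), 6 without MA replicate 2 (beside 7.74%) and 13 without MA replicate 3 (beside 23.3%). It was 2 (Kdm7a and Hdac6, beside 6.32% of all genes) with the replicate number as a block and 14 (beside 26.3%) with library quality weights.

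**Figure D2:**
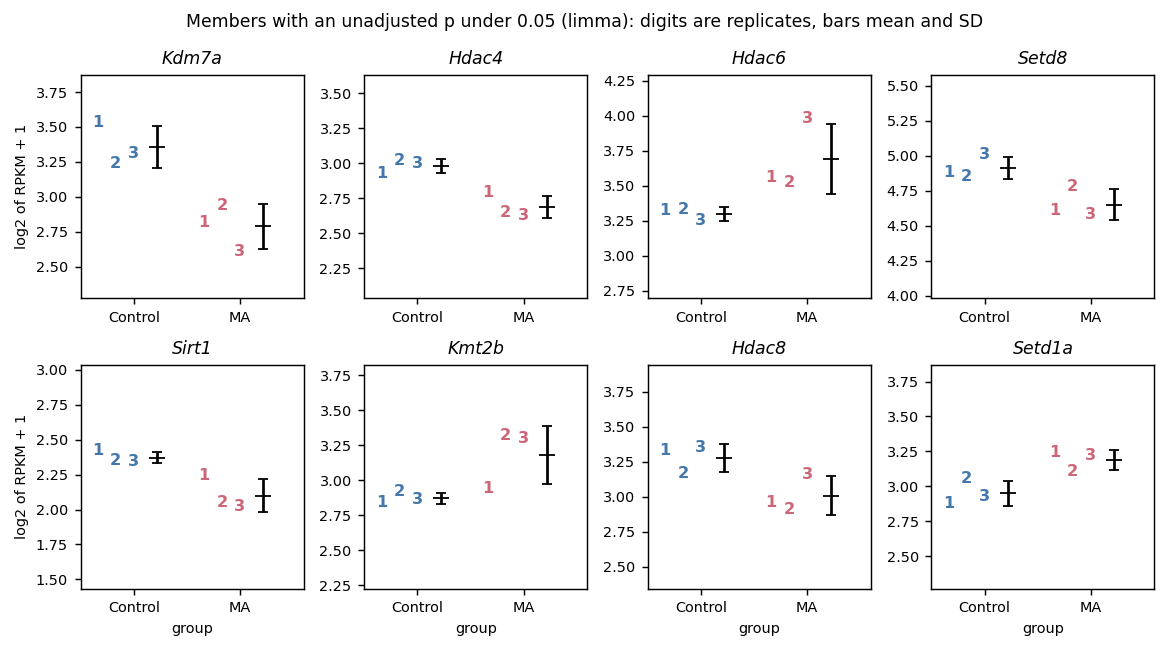
Log2 of RPKM plus 1 (vertical axis, each panel spanning the same range) of the 8 members with an unadjusted limma p under 0.05. Digits are the replicate numbers of the Control and MA libraries and bars are mean and SD (n = 3). The groups do not overlap in any panel, with Kdm7a, Hdac4, Setd8, Sirt1 and Hdac8 lower and Hdac6, Kmt2b and Setd1a higher in MA.

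The start regions of the 4 members with the smallest p are shown because they are a part of these genes on which transcription factors act. Each run is the sequence before the RefSeq transcription start on GRCm38.p6, written 5′ to 3′ on the strand of the gene, with annotated exonic bases left out. Capitals mark matches, on either strand, to the GC box (GGGCGG), the CCAAT box (CCAAT) or the half-site of the cAMP response element (TGACG).
Kdm7a promoter, chr6:39206790-39207023 (- strand): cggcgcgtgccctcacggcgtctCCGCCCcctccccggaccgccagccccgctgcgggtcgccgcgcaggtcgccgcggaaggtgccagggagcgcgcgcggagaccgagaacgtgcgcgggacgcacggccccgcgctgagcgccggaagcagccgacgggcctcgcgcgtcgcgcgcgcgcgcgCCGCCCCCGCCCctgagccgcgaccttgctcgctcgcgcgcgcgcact
Hdac4 promoter, chr1:92180342-92180591 (- strand): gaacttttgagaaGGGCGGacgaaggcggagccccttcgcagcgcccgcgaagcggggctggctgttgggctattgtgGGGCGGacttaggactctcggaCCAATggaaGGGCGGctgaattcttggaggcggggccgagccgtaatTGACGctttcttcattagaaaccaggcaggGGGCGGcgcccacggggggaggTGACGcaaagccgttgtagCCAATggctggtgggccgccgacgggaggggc
Hdac6 promoter, chrX:7947890-7948139 (- strand): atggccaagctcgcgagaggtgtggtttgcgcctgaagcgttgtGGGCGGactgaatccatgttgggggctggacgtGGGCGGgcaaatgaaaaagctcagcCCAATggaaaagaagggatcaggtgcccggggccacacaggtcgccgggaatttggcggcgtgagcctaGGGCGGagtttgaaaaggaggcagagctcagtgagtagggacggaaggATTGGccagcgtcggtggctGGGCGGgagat
Setd8 promoter, chr5:124439680-124439929 (+ strand): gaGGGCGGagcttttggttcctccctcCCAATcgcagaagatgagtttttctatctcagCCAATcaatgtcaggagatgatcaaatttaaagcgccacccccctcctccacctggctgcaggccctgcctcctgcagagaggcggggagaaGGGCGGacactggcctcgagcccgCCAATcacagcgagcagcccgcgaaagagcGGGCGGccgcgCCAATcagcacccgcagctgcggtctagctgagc
In the full 250 bases before the start, Kdm7a held 3 GC boxes and 56 CpG dinucleotides, against a median of 6 CpG over all 32817 windows of this kind and 19 over the members. Hdac4 held 4 GC boxes, 2 CCAAT boxes and 2 half-sites of the cAMP response element, the sequence bound by CREB. The Hdac4 window lies inside the annotated gene (chr1:91928779-92195699, - strand), since the RefSeq start used is downstream of the gene's annotated 5′ end. Hdac6 held 4 GC boxes and 2 CCAAT boxes, and Setd8, listed by RefSeq as Kmt5a and shown at the first of its 3 starts, held 3 GC boxes and 4 CCAAT boxes. The element's half-site was found only in the Hdac4 window among the 4, where 17.7% of all windows hold it. Over the 75 windows of 53 members with an entry, a GC box was present in 58.7% (32.7% of all windows), a CCAAT box in 36.0% (33.8%) and the half-site in 25.3% (17.7%). A TATA box (TATAAA) was present in 4.0% of the members' windows and in 12.4% of all, and an E-box (CACGTG) in 5.33% and 6.02%. The set of all windows was not limited to genes tested here or matched for CpG, so these shares do not set the members apart from like genes. All 4 windows held GC boxes, those of the 3 members lower in MA and that of Hdac6 alike, and a match describes the letters only.

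By level, the class I deacetylases were led by Hdac2, a repressor of memory-related genes, and the order was Hdac2, Hdac3, Hdac1 and Hdac8 in the mean over 6 libraries. Hdac2 had log2 levels of 5.56, 5.43 and 5.36 in Control and 5.25, 5.33 and 5.26 in MA. Each MA library was below each Control library by a small margin, and the difference was -0.17 (95% interval -0.37 to 0.02, limma adjusted p = 0.529). Per length, Hdac2 exceeded its close relative Hdac1 by 0.75 to 1.15 on the log2 scale in all 6 libraries. The class was split in direction, with Hdac1 and Hdac3 higher in MA by 0.13 and 0.22 and Hdac2 and Hdac8 lower. Without MA replicate 3 the difference of Hdac3 was 0.09.

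In the class II and class IV deacetylases 6 of 7 members were higher in MA, Hdac4 being the exception, with a median difference of 0.22, beside 47.3% of all genes higher. Of the 7, 1 had an unadjusted p under 0.05 and was higher (beside 4.99% of all genes) and 1 had such a p and was lower (beside 5.46%). Without MA replicate 3 the direction was still higher in 6, but Hdac7 moved from 0.24 to 0.07, Hdac10 from 0.19 to 0.02 and Hdac9 from 0.12 to 0.35. Hdac5, a class IIa enzyme exported from the nucleus after neuronal activity, was the most abundant of them, at 5.60, 6.01 and 6.05 in Control and 6.11, 6.05 and 6.17 in MA. Control replicate 1 was low, the other libraries overlapped, and the difference of 0.22 (limma adjusted p = 0.606) was 0.08 without that library. Hdac5 stood 2.67 to 3.54 above Hdac4 in every library on the log2 scale. Hdac11, the class IV enzyme, was singled out after its values were seen, and genes on the other strand overlap 17.9% of its exonic length. It was 5.71, 5.76 and 5.82 in Control, 6.15 and 6.26 in MA replicates 1 and 2 and 5.66 in MA replicate 3. With all libraries the difference was 0.26 (limma adjusted p = 0.614). Without MA replicate 3 it was 0.44 (limma adjusted p = 0.0389), the 1 member of 66 to pass the threshold in that fit, beside 1.93% of all genes, and with library quality weights it was 0.43 (limma adjusted p = 0.0399).

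Sirtuins deacetylate proteins in the nucleus, cytoplasm and mitochondria. Sirt2, the cytoplasmic sirtuin known from myelinating cells, had the highest level of all 67 members, at 6.50, 6.72 and 6.55 in Control and 6.54, 6.42 and 6.62 in MA. The groups overlapped, with a difference of -0.06 (95% interval -0.28 to 0.16). It exceeded Sirt1 by 4.08 to 4.60 on the log2 scale in each library. Of the mitochondrial sirtuins, Sirt3 differed by 0.03, Sirt4 by 0.15 and Sirt5 by 0.33, and all 3 overlapped between the groups. MA replicate 3 was the highest library of Sirt4, at 4.31, and without it the difference was -0.06, while that of Sirt5 was 0.21.

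Among the 9 acetyltransferases 0 had an unadjusted limma p under 0.05 (beside 10.4% of all genes) and 0 had groups without overlap (beside 17.5%), numbers too small to set the family apart. With library quality weights 2 had such a p (beside 26.3% of all genes), and without MA replicate 3 it was 1 (beside 23.3%). The coactivator Crebbp, which binds CREB, was 2.87, 2.96 and 2.79 in Control and 2.63, 2.74 and 2.81 in MA, a difference of -0.14 (95% interval -0.37 to 0.09). Its paralog Ep300 was 2.62, 2.39 and 2.58 in Control and 2.63, 2.74 and 2.19 in MA, a difference of -0.01 (95% interval -0.38 to 0.37). MA replicate 3 was the lowest of the 6 libraries for Ep300 and MA replicates 1 and 2 the highest, so that the difference was 0.16 without that library. Crebbp was above Ep300 in every Control library and in MA replicate 3, and the levels were equal at the printed precision in MA replicates 1 and 2. Kat5, the Tip60 acetyltransferase, was the most abundant of the family at 4.55, 4.64 and 4.54 in Control and 4.54, 4.63 and 4.67 in MA, and its difference of 0.03 was smaller than the SD of either group.

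Of the 7 bromodomain readers 0 had an unadjusted limma p under 0.05 (beside 10.4% of all genes). Without MA replicate 3, Brd8 alone had such a p (beside 23.3% of all genes). Brd2 was the most abundant, at 5.69, 5.69 and 5.90 in Control and 5.93, 5.89 and 5.64 in MA, with a difference of 0.06 (95% interval -0.19 to 0.31). The groups overlapped, and over the family the differences ran from -0.11 to 0.21, with 3 members higher and 4 lower in MA.

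The Kmt2 methyltransferases differed in direction among themselves. Kmt2a, needed for memory formation in the hippocampus, was 2.93, 2.78 and 2.97 in Control and 2.75, 2.76 and 2.41 in MA. All MA libraries were lower, 2 of them by very little, and the difference was -0.25 (95% interval -0.55 to 0.05, limma adjusted p = 0.560), or -0.14 without MA replicate 3. Kmt2c was lower by 0.28, also without overlap, and Kmt2d and Kmt2e were higher by 0.18 and 0.10 with overlap. Without MA replicate 3 the differences were -0.16 for Kmt2c, 0.33 for Kmt2d and 0.35 for Kmt2e. Kmt2d, the most abundant of the family, was 3.50, 3.44 and 3.34 in Control, 3.78 and 3.74 in MA replicates 1 and 2 and 3.31 in MA replicate 3. Among the Setd proteins, Setd3, an actin histidine methyltransferase, was the most abundant at 5.92, 5.91 and 6.01 in Control and 5.97, 5.87 and 5.85 in MA (difference -0.05, 95% interval -0.23 to 0.13).

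Ezh1 and Ezh2 are the alternative catalytic subunits of Polycomb repressive complex 2. Ezh1, the form that prevails in non-dividing cells, was 4.55, 4.33 and 4.36 in Control and 4.32, 4.47 and 4.43 in MA. Ezh2, the form of dividing cells, was 2.24, 2.21 and 1.72 in Control and 1.48, 2.46 and 1.96 in MA. Ezh1 was above Ezh2 by 2.01 to 2.84 on the log2 scale in all 6 libraries. The differences between the groups were -0.01 (95% interval -0.23 to 0.21) for Ezh1 and -0.09 (95% interval -0.69 to 0.51) for Ezh2, whose libraries were spread more widely.

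Of the 16 tested demethylases, 8 were higher and 8 lower in MA, and Kdm7a alone had an unadjusted p under 0.05 (beside 10.4% of all genes). Kdm4b, which acts on methylated histone H3, was the most abundant at 4.39, 4.38 and 4.14 in Control and 4.12, 4.39 and 4.64 in MA, with overlapping groups and a difference of 0.08. Kdm6b, an activity-responsive demethylase of the Polycomb mark, was 2.92, 2.67 and 2.79 in Control and 2.63, 2.67 and 2.65 in MA. The groups met at 2.67, and the difference was -0.14 (95% interval -0.38 to 0.09, limma adjusted p = 0.683). The X-linked Kdm5c exceeded its Y-linked counterpart Kdm5d by 0.44 to 1.16 on the log2 scale in all 6 libraries.

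**Figure D3:**
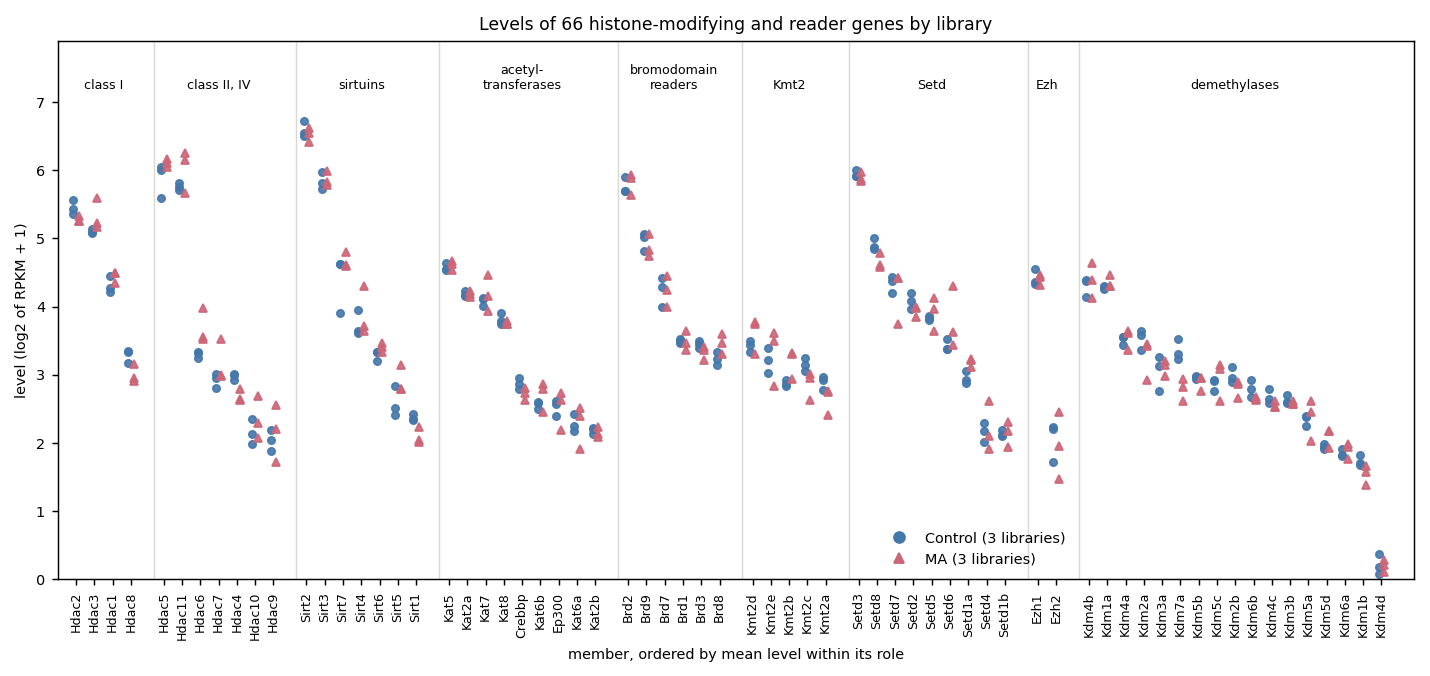
Log2 of RPKM plus 1 (vertical axis) of 66 members in the 3 Control (circles) and 3 MA (triangles) libraries, ordered within each role by mean level. Levels run from Kdm4d below 0.4 to Sirt2 above 6.4, and the libraries of Sirt2 lie above those of all other sirtuins.

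MA replicate 3 set much of the spread among the MA libraries. It was the lowest or highest of the 6 libraries in 45 of 66 members, or 68.2%, beside 55.4% of all genes, and the lowest in 29. In 12 members, or 18.2%, MA replicates 1 and 2 lay above every Control library while MA replicate 3 lay below every Control library, beside 8.82% of all genes. These were Ep300, Kat6b, Kat7, Kdm4a, Kdm5a, Kdm5c, Kdm6a, Kmt2d, Kmt2e, Setd5, Hdac9 and Hdac11. The reverse order was found in 0 members, beside 6.2% of all genes. The position of MA replicate 3 followed the exonic length of the members. Among the 22 longest, of 9596 to 20291 bases, it was below the mean of the other 2 MA libraries in 18, with a median of -0.32 on the log2 scale. Among the 22 shortest, of 1903 to 5495 bases, it was below in 6, with a median of 0.12. Across the 66 members, which are not independent replicates and share the same libraries, Pearson's r with log2 length was -0.58 and Spearman's rho -0.57, and across all genes with a length r was -0.32. The members were long, with a median of 6951 bases beside 4504 for all genes. The other 2 MA libraries against Control followed length only weakly, with r of 0.09. After a correction of each library for exonic length and GC content, chosen after the data were seen, 9 members had an unadjusted p under 0.05, beside 11.2% of all genes, with 6 lower (beside 5.47%) and 3 higher (beside 5.74%), and Kdm7a was at -0.50 (limma adjusted p = 0.129).

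Without MA replicate 3, an unadjusted p under 0.05 was reached by 13 members, or 19.7%, beside 23.3% of all genes, with 9 higher (beside 11.9%) and 4 lower (beside 11.4%). With 2 MA libraries left, non-overlap was found in 29 members, or 43.9%, beside 42.9% of all genes, with MA higher in 18 (beside 20.8%) and lower in 11 (beside 22.1%).

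**Figure D4:**
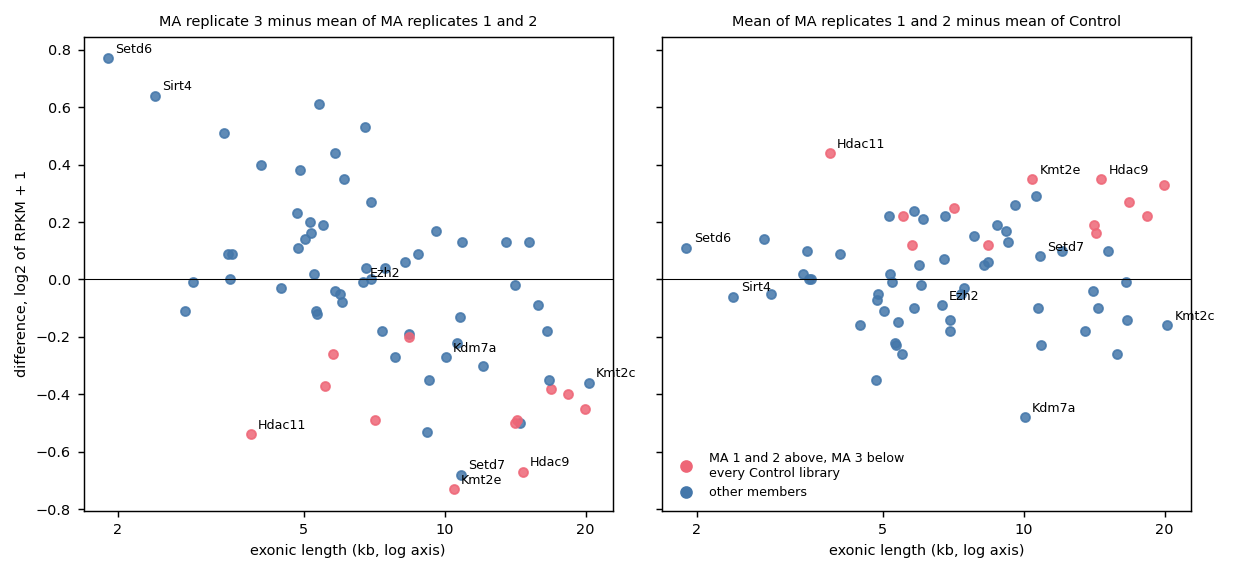
Differences on the log2 scale (vertical axis) against exonic length (horizontal axis, kb, log axis) of 66 members. On the left is MA replicate 3 minus the mean of MA replicates 1 and 2, which falls with length (r = -0.58), and on the right the mean of MA replicates 1 and 2 minus the mean of Control (r = 0.09). Red points are the 12 members in which MA replicates 1 and 2 were above and MA replicate 3 below every Control library.

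Genes that work with these enzymes were examined in the same fit. In 5 lists of partners, 112 genes were tested, none passed the adjusted threshold in limma and 8, or 7.14%, had an unadjusted p under 0.05, beside 10.4% of all genes. Of the 8, 7 were lower in MA (5.46% of all genes were called lower) and 1 was higher (4.99%). Among 20 corepressor partners of the deacetylases the count was 1 higher and 1 lower. Of 20 Polycomb subunits it was 3 lower and of 27 further histone methyltransferases and demethylases 3 lower. In 11 COMPASS subunits and 34 acetyltransferase complex subunits it was 0 (limma), where leaving out a library gave up to 1 and up to 4. The 4 were found without MA replicate 3, beside 23.3% of all genes. Rnf2, the ubiquitin ligase of Polycomb repressive complex 1, had the smallest p, at 3.62, 3.55 and 3.59 in Control and 3.12, 3.20 and 3.27 in MA (difference -0.39, standard error 0.09, limma adjusted p = 0.204). Prdm2, a histone methyltransferase of the Prdm family, was next, at 3.78, 3.65 and 3.56 in Control and 3.27, 3.27 and 3.31 in MA (difference -0.38, standard error 0.09, limma adjusted p = 0.233). In both, all MA libraries lay below all Control libraries. The 3 genes of the member families under older symbols differed by 0.18 (Csrp2bp), -0.06 (Suv420h1) and 0.21 (Suv420h2), with limma adjusted p-values of 0.805, 0.907 and 0.844.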

How the data were processed

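RNA-seq of the hippocampus was deposited by the authors as 1 table of 16060 rows with 16031 Ensembl identifiers. Its values are named as RPKM but lie on a log2 scale, read with an offset of 1 from the lowest value of 0, and every library shared 1 maximum. The log transform and the normalization between libraries are not described. The study's methods name Hisat2, featureCounts, FPKM by gene length and DESeq2, whereas the submitters' processing notes name Bowtie 0.12.2 and the builds mm8 and mm9. The deposited log2 values were tested as they were with limma 3.58.1 in R 4.3.3 (lmFit, eBayes with a trend), comparing MA with Control without covariates, and p-values were adjusted by Benjamini-Hochberg over the 13321 rows with at least 0.5 RPKM in at least 3 libraries. p-values use 0.05 as the threshold. Single members were also tested with an exact permutation test.

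Coordinates, exonic lengths and overlaps are from GENCODE M21 on GRCm38, matched for 15987 identifiers and for all 67 members, and serve for location, since the build the authors used is uncertain. Promoters are from RefSeq. On 10 simulated tables of 13321 genes in which 200 carried a log2 difference of 1, the median share recovered was 76.25% and the median share of false calls 4.96%. The simulated noise had the same spread in both groups and no deviating library. The planted difference was larger than that of any member (-0.57 to 0.39), so the recovery does not apply to differences of the members' size. Alternatives were median centring, quantile normalization, pseudocounts of 0.1 and 0.01, no filter, a mean of at least 5, no trend, library quality weights, a replicate block and leaving out each library, and, added after the data were seen, a length and GC correction (lowess, span 0.3).

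The members, the gene lists and the tests were chosen with earlier results of these data known. Values in every library are given for members with an unadjusted p under 0.05, for the most abundant member of each role and for 9 members chosen by name (Hdac2, Hdac5, Sirt1, Ep300, Crebbp, Kdm6b, Ezh1, Ezh2 and Kmt2a), and for the 2 partner genes with the smallest p. The single values of 1 member are not reported here, and it is counted in the totals. The marker lists were those of neurons, hippocampal subfields, choroid plexus and erythrocytes, and of astrocytes, oligodendrocytes, microglia, endothelium and thalamus, and microglia and oligodendrocytes had no marker with an unadjusted p under 0.05 (limma).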

Additional observations from a re-analysis of the deposited data

How the results depend on the processing

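The count of 0 members past the adjusted threshold held under median centring, quantile normalization, both pseudocounts, both other filters, no trend, the replicate block and the length and GC correction. With library quality weights it was 2 (Kdm7a and Hdac11, beside 4.4% of all genes). The count at an unadjusted p under 0.05 was then 14 (beside 26.3%) and the median difference was 0.051. With the replicate number as a block, 2 members kept an unadjusted p under 0.05 (beside 6.32% of all genes). With the block and the length and GC correction 1 did, for which no share of all genes is given. Deviations of libraries with the same number from their group means had correlations of -0.197, -0.242 and -0.337 across genes for replicates 1, 2 and 3. With so few libraries per group and MA replicate 3 apart from the others, this cannot show whether the numbers pair the mice. When each library was left out, there were from 0 to 1 members past the adjusted threshold, the 1 without MA replicate 3 (beside 1.93% of all genes). At an unadjusted p under 0.05 there were from 1 to 13, beside 6.22% to 23.3% of all genes. Groups did not overlap in 17 to 29 members. The 29, without MA replicate 3, stood beside 42.9% of all genes, and the shares for the other fits are not given. Smaller groups separate more easily, so these counts are not set against those of all libraries. From 29 to 36 members were lower in MA, and the median difference was from -0.019 to 0.035. Of 388 values for 23 named members under 17 alternatives, 370 kept their direction and side of the threshold, 15 changed sign and 3 newly passed the threshold. The changes of sign were in members with differences near 0. Ep300, Ezh1 and Ezh2 were 0.18, 0.03 and 0.10 with library quality weights, and Ep300 was 0.02 after the length and GC correction, with or without the block. Leaving out a library gave ranges of -0.12 to 0.16 for Ep300, -0.05 to 0.05 for Ezh1, -0.34 to 0.15 for Ezh2, -0.11 to 0.00 for Sirt2 and -0.05 to 0.21 for Kdm4b. The causes were not tested. The depth of the libraries is unknown.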
